A study of Mus musculus with 6 samples.

Results

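The genes described here encode collagens of basement membranes and the proteins that fold, cross-link or bind them. They are the collagen IV chains Col4a1, Col4a2, Col4a3, Col4a4 and Col4a5, the collagens Col15a1 and Col18a1, the chaperones Serpinh1 and Sparc, and the peroxidase Pxdn. They were chosen by name, through probe sets annotated to a single gene, and all 10 were measured, with 19 of 45037 probe sets, among 18193 genes on the arrays. Where a gene had several probe sets, the one with the highest average across all 6 arrays was used, and the others are given beside it.

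Sorted cells of 2 populations were hybridised to single-colour Affymetrix mouse expression arrays, 3 arrays each. Cells of the first, the Itgav-low Tie2-positive population (here Tie2-positive), were sorted as carrying Tie2, a receptor of endothelial cells, with a low level of integrin alpha V and without the blood cell antigens CD45 and Ter119. Cells of the second, the Itgav-negative Tie2-negative population (here Tie2-negative), were sorted as lacking all 4 antigens, if the dashes in its title are minus signs. Both came from pooled fore and hind limbs of mice at postnatal day 3, given as wild type in the labels, although the growth protocol speaks of GFP-labelled animals. Limbs of a litter were pooled, and whether each of the 3 arrays of a population had its own litter is not stated. The p-values then measure only how far these arrays spread, and part or all of that may be technical. Values are log2 array values after quantile normalization, and every change is Tie2-positive minus Tie2-negative.

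Basement membranes are thin sheets of matrix under endothelium, epithelium and muscle, and collagen IV is their cross-linked scaffold. Its chains assemble as trimers of fixed make-up. Trimers of Col4a1 and Col4a2 chains are found in nearly every basement membrane, and the Col4a3, Col4a4 and Col4a5 chains form a trimer best known from the kidney glomerulus. Serpinh1 (HSP47) is the collagen-specific chaperone of the endoplasmic reticulum, Sparc is a secreted protein that binds collagen IV, and Pxdn (peroxidasin) forms the sulfilimine bonds that join collagen IV trimers. Collagen IV genes lie in head-to-head pairs, Col4a1 with Col4a2, Col4a3 with Col4a4 and Col4a5 with Col4a6.

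The promoter windows of the pair Col4a1 and Col4a2 are shown because these were the collagen IV chains that rose, and that of Col4a4 because its pair did not. Each window runs from 250 bases before to 50 after the annotated gene start, read 5′ to 3′ on the strand of the gene, from RefSeq (GRCm38.p6). Capitals mark the letters CCAAT and GGGCGG on either strand, and these motifs do not overlap in the windows shown. Col4a1 lies on the minus strand at chr8:11312777-11313076, Col4a2 on the plus strand at chr8:11312555-11312854, and Col4a4 on the minus strand at chr1:82586800-82587099.
Col4a1: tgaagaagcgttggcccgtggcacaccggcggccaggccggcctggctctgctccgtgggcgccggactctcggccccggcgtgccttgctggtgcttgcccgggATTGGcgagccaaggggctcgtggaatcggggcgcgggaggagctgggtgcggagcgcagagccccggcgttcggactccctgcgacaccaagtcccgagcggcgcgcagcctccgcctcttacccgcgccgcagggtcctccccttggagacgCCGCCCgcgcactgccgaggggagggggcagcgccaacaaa
Col4a2: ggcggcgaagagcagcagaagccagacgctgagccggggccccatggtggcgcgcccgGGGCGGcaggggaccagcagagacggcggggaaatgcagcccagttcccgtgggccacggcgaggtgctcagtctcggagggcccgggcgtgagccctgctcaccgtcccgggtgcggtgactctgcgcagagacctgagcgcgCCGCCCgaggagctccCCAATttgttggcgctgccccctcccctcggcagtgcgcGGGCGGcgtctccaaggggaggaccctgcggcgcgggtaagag
Col4a4: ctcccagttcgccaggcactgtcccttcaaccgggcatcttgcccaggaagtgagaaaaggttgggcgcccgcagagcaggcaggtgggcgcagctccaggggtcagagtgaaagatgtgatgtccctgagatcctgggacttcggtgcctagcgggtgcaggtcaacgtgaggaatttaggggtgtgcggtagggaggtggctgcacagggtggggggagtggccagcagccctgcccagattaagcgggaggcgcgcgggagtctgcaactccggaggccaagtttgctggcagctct
The Col4a1 and Col4a2 windows share 78 bases on opposite strands, chr8:11312777-11312854, printed here on the plus strand in lower case throughout.
Shared by Col4a1 and Col4a2: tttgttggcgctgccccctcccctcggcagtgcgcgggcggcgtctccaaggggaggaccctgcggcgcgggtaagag
These shared bases hold the only GGGCGG of the Col4a1 window, which is 1 of 3 in the Col4a2 window. Each of these 2 windows also holds 1 CCAAT, that of Col4a1 outside the shared bases and that of Col4a2 ending on the first of them, while the Col4a4 window holds neither motif. Windows were found for 9 of the 10 genes (Col4a3 is named only), with a second one for Col18a1. At least 1 window held CCAAT in 5 of the 9 genes and GGGCGG in 6, and none held TATAAA in any of them. The motifs did not follow the changes across the genes. Col4a5, which did not pass limma's test, held both CCAAT and GGGCGG, while Col15a1 and Sparc, which rose, held neither. These counts are per gene, and Col18a1 held CCAAT and GGGCGG in only 1 of its 2 windows. Counted per window, over all 32851 windows of 300 bases, 37.4% held CCAAT, 35.7% GGGCGG and 13.6% TATAAA. A match of letters is a description of the sequence and does not show that a factor binds there.

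The sort was checked first. Tek, the gene of Tie2, was at 12.06, 10.86 and 9.80 in Tie2-positive replicates 1, 2 and 3, and at 4.81, 4.79 and 4.90 in the Tie2-negative arrays. Itgav was at 8.78, 8.60 and 9.37 in the Tie2-positive arrays and at 7.06, 7.18 and 7.24 in the Tie2-negative ones, so both antigens' transcripts followed the gates. Ptprc, the gene of CD45, was at 4.87, 9.95 and 11.23 in Tie2-positive replicates 1, 2 and 3, and at 9.52, 10.41 and 9.42 in the Tie2-negative arrays, although both gates were titled CD45-negative. Correlations between arrays over all genes ran from 0.898 to 0.980 within the Tie2-positive and from 0.969 to 0.983 within the Tie2-negative population.

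Of the 10 genes, 7 rose in the Tie2-positive population, none fell, and 3 did not pass limma's test at an adjusted p under 0.05. Those that rose were Col4a1, Col4a2, Col15a1, Col18a1, Serpinh1, Sparc and Pxdn, with log2 changes from 3.70 to 6.32. The 3 that did not pass were Col4a3, Col4a4 and Col4a5. Over all 18193 genes, 4.86% rose and 2.53% fell (7.39% called in all), and the median log2 change was -0.11, against a median of 3.87 for the 10 genes. The groups of 3 arrays did not overlap in the 7 genes that rose, with Tie2-positive higher in each. Over all genes, 15.2% had every Tie2-positive array above every Tie2-negative one, and 23.9% had every Tie2-positive array below. The calls were lost without Tie2-negative replicate 1, or without replicate 2. Limma then called 0 of the 10 genes (0% of all genes), with 4012 and 3980 of all genes at an unadjusted p under 0.05. The smallest limma adjusted p over all genes was 0.0518 and 0.0607. The 7 genes still had log2 changes from 3.36 to 6.03 and from 3.44 to 5.86. Of the 10 genes, 5 were called without Tie2-positive replicate 2 (2.77% of all genes) and 6 with Tie2-negative replicate 3 left out (2.08% of all genes). With Tie2-positive replicate 1 or 3 left out 7 were called (11.8% and 5.96% of all genes), and with array weights 8 were (25.5% of all genes). With Tie2-positive replicates 2 and 3 both left out, a setting added after seeing the data, 7 were called (20.0% of all genes).

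**Figure D1:**
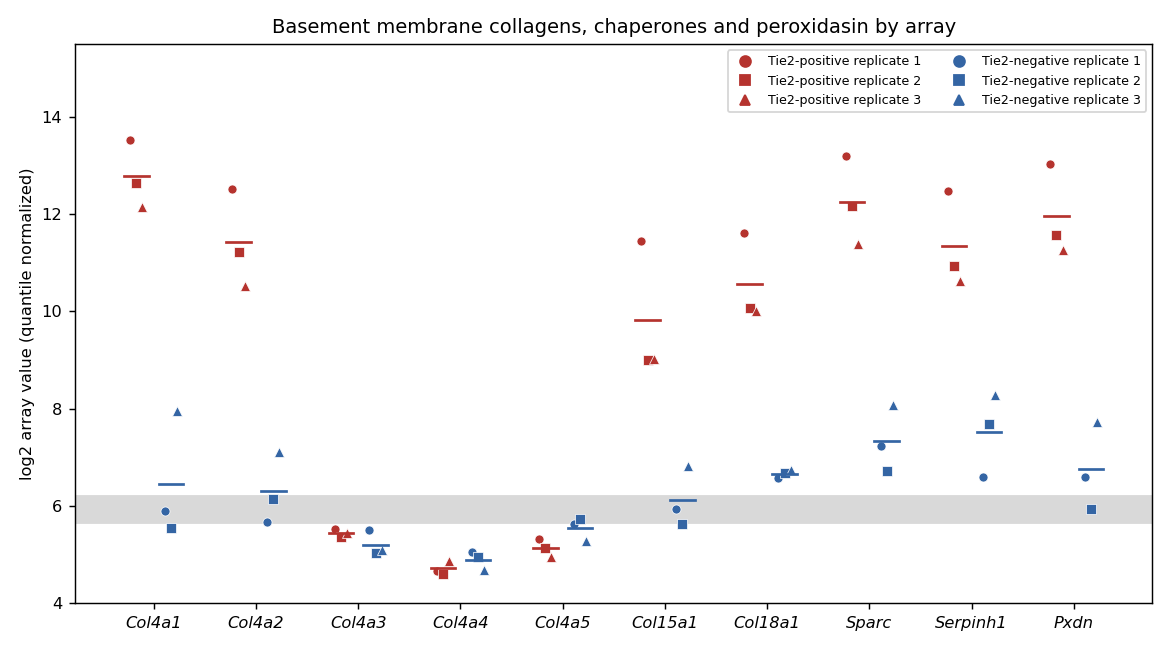
Log2 array value (y axis) of each of the 10 genes (x axis) at the probe set used, with 1 point per array and a bar at the group mean, Tie2-positive in red to the left of Tie2-negative in blue. The grey band spans the sensory receptor levels of the 6 arrays, from 5.64 to 6.20, and Col4a3, Col4a4 and Col4a5 lie below the level of their own array in all 6.

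Whether a chain was present was read against genes that limb cells are not known to use, because no detection calls came with the values. The sensory receptor level of an array is the 95th percentile of 80 probe sets for olfactory and vomeronasal receptors. Tie2-positive replicates 1, 2 and 3 had levels of 5.75, 5.85 and 5.64, and the Tie2-negative arrays of 6.13, 6.06 and 6.20. Most genes passed it: of 18193, 11381, 11265 and 11947 in Tie2-positive replicates 1, 2 and 3, and 10154, 10443 and 10070 in the Tie2-negative arrays. The level was higher in the Tie2-negative arrays, so part of a difference in counts between populations can come from the level itself. Probe sets differ in how strongly they bind, so a value below this level does not show that a transcript was absent.

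Col4a1, which supplies most of the chains of the common collagen IV trimer, was at 13.53, 12.65 and 12.14 in Tie2-positive replicates 1, 2 and 3, and at 5.89, 5.54 and 7.95 in Tie2-negative replicates 1, 2 and 3. The populations were at least 4.20 apart, Tie2-positive replicate 1 was the highest array, and among the Tie2-negative arrays replicate 3 stood above the other two and was the only one over its sensory receptor level. The mean was 12.78 ± 0.70 in Tie2-positive and 6.46 ± 1.30 in Tie2-negative cells (SD, n = 3 each), a log2 change of 6.32 ± 0.68 (SE; limma adjusted p = 0.0104). Tie2-negative replicates 1 and 2 were below the sensory receptor level here, so the size of the change depends on the floor of the arrays and is not exact. The same holds for Col4a2 and Pxdn, with 1 Tie2-negative array below the level each, and for Col15a1, with 2. A second Col4a1 probe set, 1426348_at, read 13.06, 11.44 and 10.54 in the Tie2-positive arrays and 6.64, 7.46 and 7.28 in the Tie2-negative ones. It rose by 4.55 ± 0.61 (SE; limma adjusted p = 0.0140 over all probe sets), and by it Col4a1 was above the sensory receptor level in all 3 Tie2-negative arrays too. In bulk samples such as these, fewer cells of a type and less RNA per cell cannot be told apart.

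Col4a2, the partner chain of Col4a1, was at 12.52, 11.23 and 10.52 in the Tie2-positive arrays and at 5.67, 6.15 and 7.11 in the Tie2-negative ones. The groups did not overlap, and here too Tie2-positive replicate 1 and Tie2-negative replicate 3 were the highest of their populations. It rose by 5.11 ± 0.58 (SE, 95% interval 3.73 to 6.50; limma adjusted p = 0.0105), which lies between the changes of the pair of Col4a1 probe sets. Col4a2 was above the sensory receptor level in all 3 Tie2-positive arrays and in Tie2-negative replicates 2 and 3.

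Col4a3 and Col4a4, which encode chains of the glomerular type of collagen IV, were below the sensory receptor level in every array and at every probe set. At the probe set used, Col4a3 was at 5.53, 5.36 and 5.44 in the Tie2-positive arrays and at 5.50, 5.02 and 5.08 in the Tie2-negative ones. Its change was 0.25 (95% interval -0.15 to 0.64; limma adjusted p = 0.352), and the arrays of the populations overlapped. Its other probe set, 1438779_at, gave -0.25 ± 0.09 (SE; limma adjusted p = 0.150 over all probe sets), so no direction can be given. Col4a4 was at 4.66, 4.60 and 4.87 in the Tie2-positive arrays and at 5.04, 4.94 and 4.67 in the Tie2-negative ones, again with overlap. Its change was -0.17 (95% interval -0.51 to 0.17; limma adjusted p = 0.447), and its other 2 probe sets gave 0.01 and -0.02.

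Col4a5, on the X chromosome beside Col4a6, also had probe sets that lay opposite ways. The probe set used, 1425475_at, was at 5.31, 5.12 and 4.95 in the Tie2-positive arrays and at 5.62, 5.74 and 5.27 in the Tie2-negative ones, all below the sensory receptor level. Its change was -0.42 (95% interval -0.83 to 0.0015; limma adjusted p = 0.176). The other probe set, 1425476_at, was at 6.11, 4.52 and 5.10 in Tie2-positive replicates 1, 2 and 3, and at 4.00, 3.51 and 3.33 in the Tie2-negative arrays. By it all Tie2-positive arrays lay above all Tie2-negative ones, and replicate 1 alone passed the sensory receptor level. Its change of 1.63 ± 0.39 (SE) did not pass (limma adjusted p = 0.0601 over all probe sets), and the mean of both probe sets gave 0.61 (adjusted p = 0.171). Col4a6, not among the 10 genes, was at 6.22, 6.22 and 6.18 in the Tie2-positive arrays and at 6.00, 6.15 and 6.49 in the Tie2-negative ones, with a change of -0.01 ± 0.18 (SE; limma adjusted p = 0.988). Those values passed the sensory receptor level in all 3 Tie2-positive arrays and in Tie2-negative replicates 2 and 3, by no more than 0.54. Tie2-negative replicate 1 was below it, and the other Col4a6 probe set stayed below it throughout. At the probe sets used, 2 of the 5 chains among the 10 genes (Col4a1 and Col4a2) were above the level in each Tie2-positive array. In Tie2-negative replicates 1, 2 and 3, 0, 1 and 2 were. The level was higher in the Tie2-negative arrays: Col4a1 in replicate 1 (5.89) was below its own level of 6.13 but above the level of every Tie2-positive array.

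**Figure D2:**
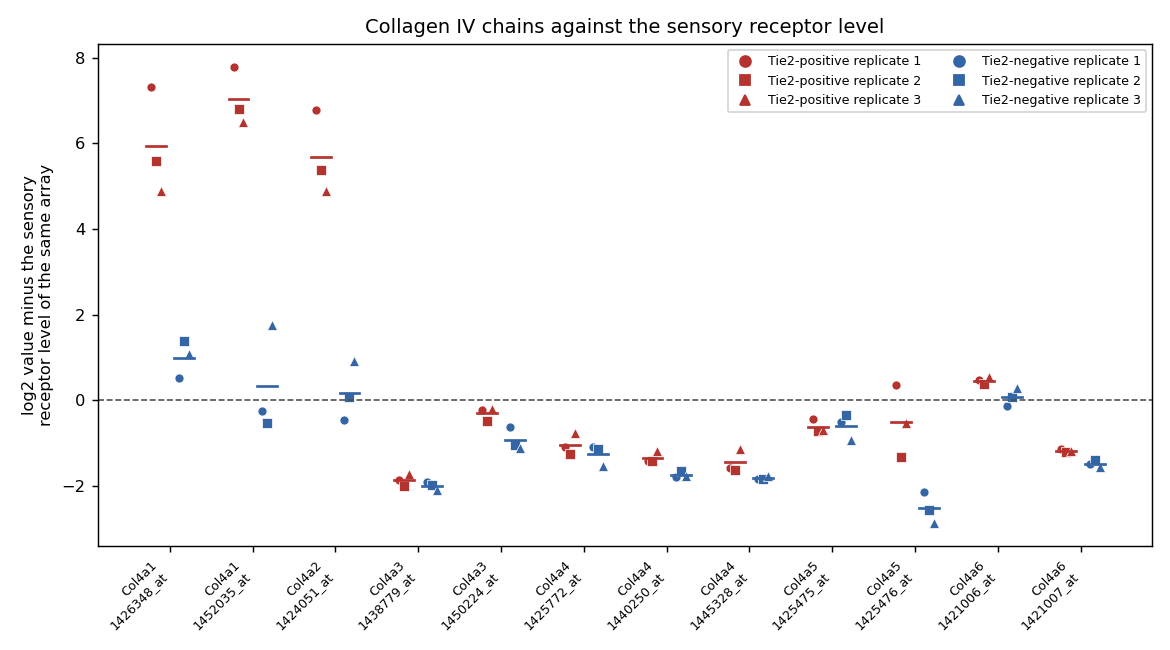
Log2 value minus the sensory receptor level of the same array (y axis) for every probe set of the collagen IV genes (x axis), with 1 point per array and a bar at the group mean, Tie2-positive in red to the left of Tie2-negative in blue. In the Tie2-positive arrays the Col4a1 and Col4a2 probe sets lie 4.88 or more above the dashed line at 0, and those of Col4a3 and Col4a4 lie below it in all arrays.

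Col18a1 encodes a basement membrane proteoglycan whose C-terminal fragment is endostatin. It was at 11.61, 10.06 and 10.01 in the Tie2-positive arrays and at 6.57, 6.66 and 6.73 in the Tie2-negative ones. Tie2-positive replicates 2 and 3 lay close together below replicate 1, and the Tie2-negative arrays spanned only 0.15. The change was 3.91 ± 0.44 (SE; limma adjusted p = 0.0105), and the second probe set, 1418237_s_at, gave 3.46 ± 0.53 (SE; adjusted p = 0.0195 over all probe sets).

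Col15a1 encodes the close relative of that proteoglycan. It was at 11.44, 9.01 and 9.02 in the Tie2-positive arrays and at 5.94, 5.62 and 6.81 in the Tie2-negative ones. Its spread of 2.43 within the Tie2-positive population was the largest among the 7 genes that rose, and the groups did not overlap. The change was 3.70 ± 0.70 (SE; limma adjusted p = 0.0305), and it did not pass without Tie2-positive replicate 2 (4.10, adjusted p = 0.0554) or without Tie2-negative replicate 3 (4.04, adjusted p = 0.0690).

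Serpinh1, which holds procollagen in its folded state until it leaves the endoplasmic reticulum, was at 12.48, 10.93 and 10.62 in the Tie2-positive arrays and at 6.58, 7.69 and 8.27 in the Tie2-negative ones. Among the Tie2-negative arrays replicate 1 was the lowest, and no Tie2-negative value reached a Tie2-positive one. The change was 3.82 ± 0.61 (SE; limma adjusted p = 0.0199), and it did not pass without Tie2-positive replicate 2 (4.03, adjusted p = 0.0518). The suffix of that probe set, x_at, marks probes that can match other transcripts. The other probe set, 1450843_a_at, was at 11.23, 9.97 and 9.12 in the Tie2-positive arrays and at 4.84, 4.62 and 5.85 in the Tie2-negative ones. By it the Tie2-negative arrays were all below the sensory receptor level, and the change was 5.004 ± 0.57 (SE; limma adjusted p = 0.0103 over all probe sets).

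Pxdn was at 13.04, 11.57 and 11.26 in the Tie2-positive arrays and at 6.59, 5.93 and 7.73 in the Tie2-negative ones. Its groups were 3.54 apart, and its single probe set rose by 5.21 ± 0.61 (SE; limma adjusted p = 0.0109).

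Sparc was at 13.20, 12.17 and 11.39 in the Tie2-positive arrays and at 7.23, 6.71 and 8.07 in the Tie2-negative ones. The groups did not overlap, and at this probe set every array was above its sensory receptor level. At the probe set 1448392_at the Tie2-negative arrays were at 5.62, 5.79 and 6.99, and replicates 1 and 2 were below the level. The change was 4.92 ± 0.53 (SE; limma adjusted p = 0.0104), and the probe set 1448392_at gave 5.36 ± 0.62 (SE; adjusted p = 0.0109 over all probe sets). The remaining Sparc probe set, 1458204_at, lay the other way, at 7.08, 6.81 and 6.70 in the Tie2-positive arrays and at 7.62, 7.99 and 7.57 in the Tie2-negative ones. Its change of -0.87 ± 0.22 (SE) did not pass (limma adjusted p = 0.0704 over all probe sets), and with it in the mean of the 3 probe sets the change of Sparc was 3.14. Of the 9 probe sets of the 10 genes that were not used, 4 rose and none fell in the fit over all 45037 probe sets, where 3.39% of probe sets rose.

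**Figure D3:**
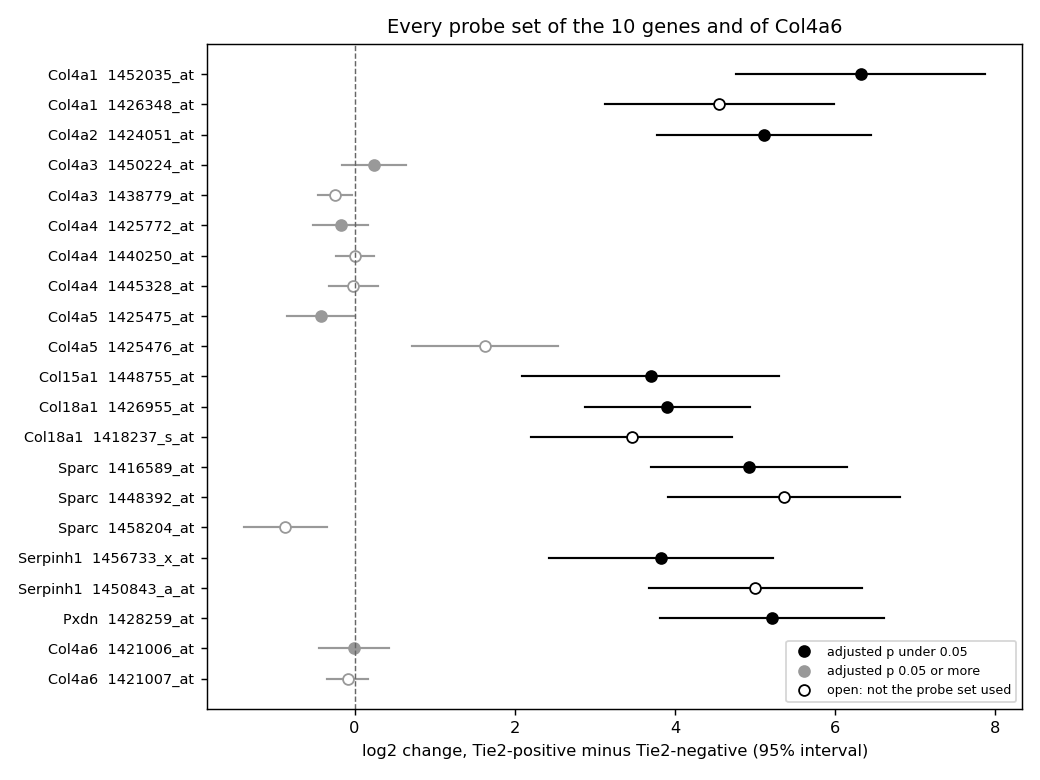
Log2 change, Tie2-positive minus Tie2-negative, with its 95% interval (x axis) for each probe set of the 10 genes and of Col4a6 (rows), from limma over all probe sets. Black marks an adjusted p under 0.05, and open circles mark probe sets that were not the one used for their gene. The Col4a3, Col4a4, Col4a5 and Sparc probe sets lie on both sides of 0.

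At the probe sets used, the 7 genes that rose shared the highest array of each population. This is a description and no separate support for the calls, which use the spread of the same arrays. Tie2-positive replicate 1 was the highest Tie2-positive array in 7 of 7, and Tie2-negative replicate 3 the highest Tie2-negative array in 7 of 7. Tie2-positive replicate 3 was the lowest Tie2-positive array in 6 of 7, all but Col15a1 (9.01 in replicate 2, 9.02 in replicate 3). The order of Tie2-negative replicates 1 and 2 was not shared. At the second probe sets of Col4a1 and Col18a1 the highest Tie2-negative arrays were replicate 2 (7.46, against 7.28 in replicate 3) and replicate 1 (6.88, against 6.33 in replicate 3). Among all 884 genes that rose on the arrays, Tie2-positive replicate 1 was the highest of its population in 80.8% and replicate 3 the lowest in 52.5%. Tie2-negative replicate 3 was the highest of its population in 54.8% of them. Among all genes these shares were 42.1%, 34.3% and 35.9%. Endothelial markers had the same highest Tie2-positive array: the median of 10 markers was 11.52, 10.37 and 9.23 in replicates 1, 2 and 3, against 5.79, 5.75 and 5.56 in Tie2-negative replicates 1, 2 and 3. All 10 endothelial markers were highest in Tie2-positive replicate 1, and all 10 had replicate 3 as the lowest Tie2-positive array. Only 5 of them passed the sensory receptor level in any Tie2-negative array, and 3 of those 5 were highest in replicate 3 of that population. Summed as linear values, the endothelial markers ran from 5191 to 31741 in the Tie2-positive and from 728 to 1040 in the Tie2-negative arrays.

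Markers of other cell types also differed between arrays, and their part in these results was not tested. Summed as linear values, the 8 neutrophil and monocyte markers came to 574, 31795 and 88503 in Tie2-positive replicates 1, 2 and 3, against 815, 2828 and 4714 in Tie2-negative replicates 1, 2 and 3. The 7 erythroid markers measured ran from 495 to 4778 in the Tie2-positive and from 16094 to 46012 in the Tie2-negative arrays, and the 6 early B-cell markers from 323 to 673 in the Tie2-positive and from 2500 to 12906 in the Tie2-negative arrays. The number above the sensory receptor level ran from 6 to 8 of 8 for neutrophils and monocytes in the Tie2-positive arrays (5 to 8 in the Tie2-negative), from 2 to 5 of 7 for erythroid markers (6 in each Tie2-negative array, with Hba-a1 below it throughout) and from 2 to 3 of 6 for early B cells (6 in each). Of the 9 pericyte and smooth muscle markers, 6 to 7 were above the sensory receptor level in the Tie2-positive and 3 to 5 in the Tie2-negative arrays. Over all 18193 genes, 11265 to 11947 were above it in the Tie2-positive and 10070 to 10443 in the Tie2-negative arrays. The sums of these 9 markers ran from 2341 to 2630 in the Tie2-positive arrays, against 814, 767 and 1210 in Tie2-negative replicates 1, 2 and 3. Myh11, the smooth muscle myosin, was below the level in every array. Of the 7 fibroblast and tendon markers, 2 to 3 were above the level in the Tie2-positive and 0 to 2 in the Tie2-negative arrays, with sums from 774 to 2544 in the Tie2-positive and from 259 to 394 in the Tie2-negative arrays, and Pdgfra, Tnmd and Scx were below it in every array. Fbln5 carried most of the top sum, and without it the other 6 summed to 254, 403 and 694 in Tie2-positive replicates 1, 2 and 3 and to 224, 230 and 343 in Tie2-negative replicates 1, 2 and 3. The 3 fat cell markers measured were below the level in every array, and so were 4 of the 7 chondrocyte markers (Sox9, Matn1, Matn3 and Hapln1). The summed macrophage markers ran from 1471 to 2421 in the Tie2-positive and from 370 to 500 in the Tie2-negative arrays, with C1qa below the level in every array. Without Mrc1, the only one of the 6 that was called, they summed to 375, 361 and 1259 in Tie2-positive replicates 1, 2 and 3 and to 337, 477 and 369 in Tie2-negative replicates 1, 2 and 3. The 5 megakaryocyte markers measured reached a sum of 8504 in Tie2-positive replicate 2 and 5681 in replicate 3, with the lowest Tie2-positive sum in replicate 1, against at most 570 in the Tie2-negative arrays. Pf4, at 9.11, 12.21 and 11.89 in Tie2-positive replicates 1, 2 and 3, was the only one of these 5 that was called (5.29 ± 0.79, SE; limma adjusted p = 0.017). The 6 skeletal muscle markers summed to 289, 484 and 1037 in Tie2-positive replicates 1, 2 and 3, against 275, 272 and 586 in Tie2-negative replicates 1, 2 and 3. Of these 6, the number above the level was 2, 4 and 5 in the Tie2-positive and 1, 1 and 4 in the Tie2-negative arrays. Tie2-negative replicate 3, where the 7 genes stood highest, thus had the most muscle markers of its population. This was not particular to muscle. Replicate 3 also had the highest Tie2-negative sums of the neutrophil and monocyte, pericyte and smooth muscle, and fibroblast and tendon markers. The sums of the remaining marker lists were highest in Tie2-negative replicate 1 or 2. The 4 osteoblast markers measured summed to 138 to 309 in the Tie2-positive and 181 to 225 in the Tie2-negative arrays, with Dmp1 below the level throughout and Alpl, a phosphatase of bone-forming cells, called lower in Tie2-positive (-0.93 ± 0.21, SE; limma adjusted p = 0.0461).

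**Figure D4:**
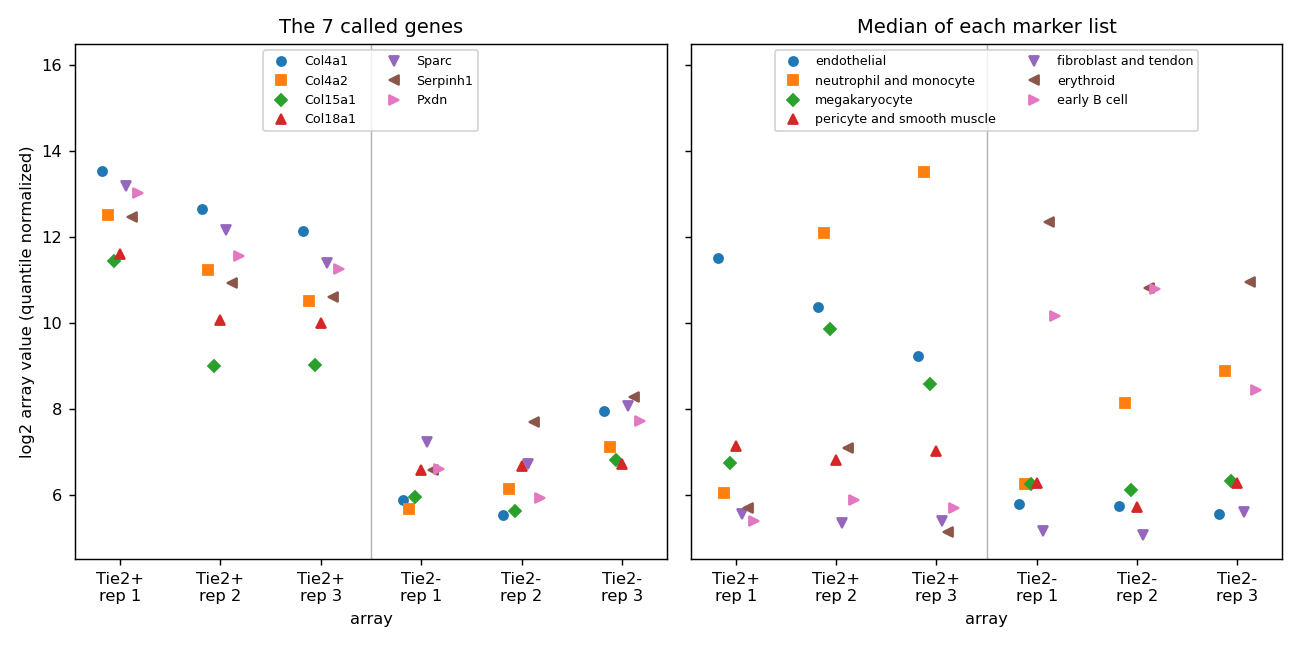
Log2 array value (y axis) of the 7 genes that rose (left panel) and the median log2 value of 7 marker lists (right panel) on each of the 6 arrays (x axis). The 7 genes are highest in Tie2-positive replicate 1, as is the endothelial median of 11.52, while the neutrophil and monocyte median is 6.04 there and 13.51 in Tie2-positive replicate 3.

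The genes whose profile over the 6 arrays was most like that of Col4a1 were found by the root mean square difference between profiles centred on their own means. The 5 closest genes outside the 10 were Vcam1, an adhesion molecule of endothelium (0.13 on the log2 scale), the caveola gene Cavin2 (0.29), Igfbp3, a binding protein for insulin-like growth factors (0.33), Cav1, the main coat protein of caveolae (0.38), and Fermt2, an activator of integrins (0.47). Vcam1 was at 11.08, 10.46 and 9.88 in the Tie2-positive arrays and at 3.52, 3.40 and 5.87 in the Tie2-negative ones, all 3 of which are below the sensory receptor level, as for Fermt2. Among the 10 genes, Pxdn (0.64), Col4a2 (0.76) and Sparc (0.81) were the nearest to Col4a1.

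Proteins that share the basement membrane with collagen IV rose in part. Of 14 measured, 6 rose, 1 fell and 7 did not pass limma's test, with a median change of 2.40 (over all genes 4.86% rose and 2.53% fell). Those with the largest changes were the nidogen Nid1, which links laminin to collagen IV (6.21 ± 0.62, SE), the laminin chains Lama4 (5.09 ± 0.70, SE) and Lamb1 (4.65 ± 0.60, SE), and the integrin ligand Npnt (4.73 ± 0.72, SE), with limma adjusted p from 0.0103 to 0.0180. Hspg2, the proteoglycan perlecan, had the highest mean array value of those that did not pass, at 9.80, 9.39 and 9.04 in the Tie2-positive arrays and at 9.83, 9.89 and 9.41 in the Tie2-negative ones. Over the mean of all their probe sets the changes of Nid1, Lama4, Lamb1 and Npnt were 3.31, 3.64, 2.52 and 2.07, and that of Hspg2 turned to 0.83 (limma adjusted p = 0.187), against -0.30 at the probe set used. Leaving out Tie2-positive replicate 2 gave 3 calls (2.77% of all genes called), as did leaving out Tie2-negative replicate 3 (2.08%). Leaving out Tie2-negative replicate 1 or 2 gave 0 (0% of all genes).

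Among relatives of Sparc, 2 rose, 1 fell and 4 of 7 did not pass (over all genes 4.86% rose and 2.53% fell). Sparcl1 (hevin) was at 12.17, 10.44 and 9.63 in the Tie2-positive arrays and at 5.53, 3.80 and 5.08 in the Tie2-negative ones, a rise of 5.94 ± 0.72 (SE; limma adjusted p = 0.0116). Fstl1, a secreted follistatin-like protein, rose by 5.01 ± 0.50 (SE; limma adjusted p = 0.0103). Smoc1, which also belongs to the basement membrane list, fell by 0.87 ± 0.19 on the log2 scale (SE; limma adjusted p = 0.0448), and Spock2, with the highest mean array value of the others, did not pass (0.17 ± 0.23, SE; adjusted p = 0.643). The call for Smoc1 was lost with the values as deposited, with arrays centred on their medians and with all probe sets tested. It was also lost without Tie2-positive replicate 2 or 3, or without Tie2-negative replicate 3. The median change of the list was 0.17, and 0 relatives passed without Tie2-negative replicate 1 or 2.

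Enzymes and carriers that fold, modify and export collagens rose in part. Of 25 measured, 6 rose, 1 fell and 18 did not pass, with a median change of 0.89 (over all genes 4.86% rose and 2.53% fell). Plod1, a lysyl hydroxylase, was at 10.32, 8.86 and 7.61 in the Tie2-positive arrays and at 5.48, 5.61 and 6.15 in the Tie2-negative ones, a rise of 3.18 ± 0.64 (SE; limma adjusted p = 0.0357). Sec24d, a coat protein of the vesicles that leave the endoplasmic reticulum, rose by 2.66 ± 0.39 (SE; adjusted p = 0.0157), and the prolyl isomerase Fkbp14 by 2.43 ± 0.51 (SE; adjusted p = 0.0391). Klhl12, an adaptor of the ubiquitin ligase that enlarges those coats for procollagen, was at 6.48, 8.52 and 8.26 in the Tie2-positive arrays and at 10.65, 10.07 and 10.20 in the Tie2-negative ones. It fell by 2.55 ± 0.54 on the log2 scale (SE; limma adjusted p = 0.0401). The other 3 risers, named after their values were seen, were Crtap, Plod2 and P3h3, which act in hydroxylation of collagen chains (changes of 2.30, 1.37 and 1.38). Ppib, a prolyl isomerase of the same compartment, had the highest mean array value of those that did not pass (change of 0.69 ± 0.27, SE; limma adjusted p = 0.153). Over the mean of their probe sets Plod1 (1.46, adjusted p = 0.0943) and Fkbp14 (1.26, adjusted p = 0.0599) did not pass. Leaving out Tie2-positive replicate 2 gave 1 call (2.77% of all genes called), as did leaving out Tie2-negative replicate 3 (2.08%). Leaving out Tie2-negative replicate 1 or 2 gave 0 calls, and leaving out Tie2-positive replicates 2 and 3 together gave 13 (20.0% of all genes called).

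Of 4 measured lysyl oxidases, which cross-link collagens through lysines, Lox rose by 0.91 ± 0.20 (SE; limma adjusted p = 0.0439) and the other 3 did not pass. The call for Lox was lost over the mean of its 3 probe sets (0.53, adjusted p = 0.114) and without any of the 6 arrays in turn. Loxl3, with the highest mean array value of the others, had a change of -0.46 ± 0.20 (SE; adjusted p = 0.181). Of 9 measured collagen receptors, 2 rose and 7 did not pass (over all genes 4.86% rose and 2.53% fell). Itga1, the integrin chain that binds collagen IV, was at 8.79, 6.88 and 6.67 in the Tie2-positive arrays and at 4.85, 4.76 and 5.05 in the Tie2-negative ones (2.56 ± 0.54, SE; limma adjusted p = 0.0398). Adgrg6, an adhesion receptor that binds collagen IV, was at 8.83, 8.31 and 5.87 in the Tie2-positive and at 4.05, 4.29 and 4.38 in the Tie2-negative arrays (3.43 ± 0.72, SE; limma adjusted p = 0.0386). Adgrg6 did not pass over the mean of its 2 probe sets (2.11, adjusted p = 0.0531), and Adgrg1, with the highest mean array value of the other receptors, did not pass (change of 0.77 ± 0.32, SE; adjusted p = 0.176). No receptor was called without Tie2-positive replicate 2 or without any one Tie2-negative array.

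Of 11 fibrillar collagens, 1 rose, 1 fell and 9 did not pass, with a median change of -0.12 (over all genes 4.86% rose and 2.53% fell). Col5a2 was at 10.90, 9.35 and 9.87 in the Tie2-positive arrays and at 6.12, 6.25 and 7.63 in the Tie2-negative ones (3.37 ± 0.54, SE; limma adjusted p = 0.0201). Col5a1, its partner chain in collagen V, was at 7.18, 8.58 and 8.72 in the Tie2-positive arrays and at 9.93, 10.04 and 10.50 in the Tie2-negative ones, and fell by 2.00 ± 0.44 on the log2 scale (SE; limma adjusted p = 0.0442). Col5a1 had no call with the values as deposited or with arrays centred on their medians. Col1a2, a chain of bone and skin collagen, had the highest mean array value of those that did not pass (change of 0.85 ± 0.37, SE; adjusted p = 0.182). Leaving out Tie2-positive replicate 1 gave 4 fibrillar calls (11.8% of all genes called). Leaving out Tie2-positive replicate 2 gave 1 (2.77%), as did leaving out Tie2-negative replicate 3 (2.08%), and leaving out Tie2-negative replicate 1 or 2 gave 0 (0%). Of 20 other non-fibrillar collagens limma called 0. An unadjusted p under 0.05 was reached by 7 of them (28.6% of all genes), and 5 were called with array weights (25.5% of all genes), so both counts are near the background. The highest mean array value of these was that of Col6a2, at 7.65, 8.30 and 9.35 in the Tie2-positive arrays and at 7.71, 7.69 and 8.45 in the Tie2-negative ones (0.49 ± 0.46, SE; limma adjusted p = 0.504). The count was 2 without Tie2-positive replicate 3 (5.96% of all genes) and 4 without Tie2-positive replicates 2 and 3 together (20.0% of all genes).

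**Figure D5:**
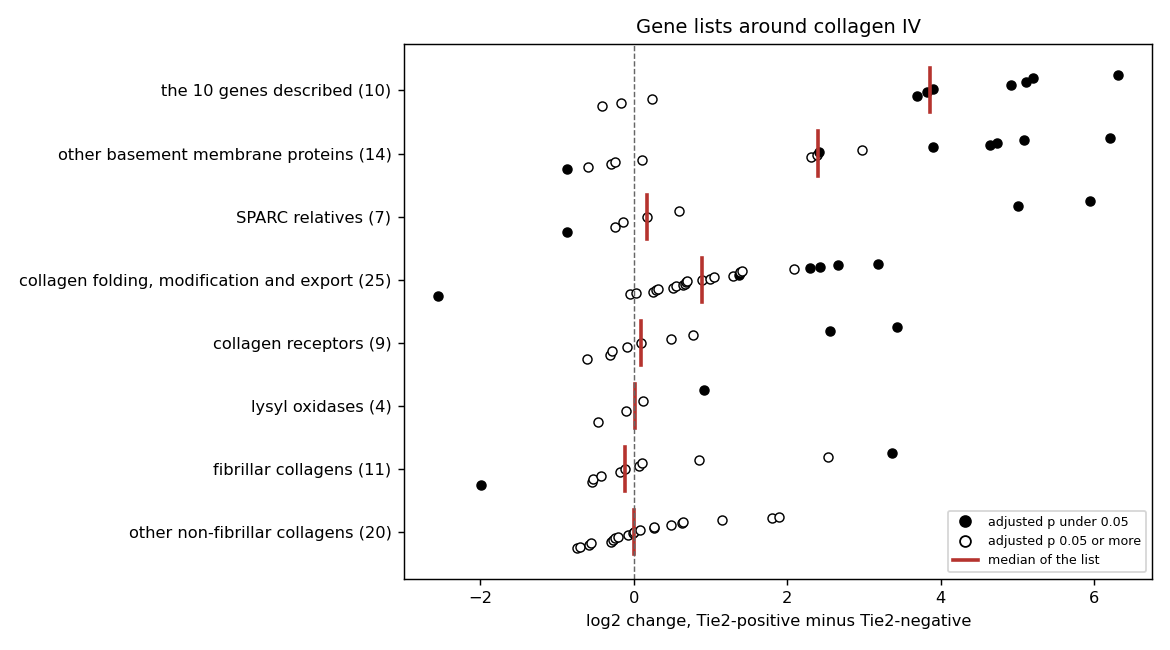
Log2 change, Tie2-positive minus Tie2-negative (x axis), of every measured gene in the 10 genes and in 7 related lists (rows, number of genes in parentheses), with filled circles for an adjusted p under 0.05 and a red line at the median of each list. The medians are 3.87 for the 10 genes, 2.40 for other basement membrane proteins and between -0.12 and 0.89 for the remaining 6 lists.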

How the data were processed

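Per probe set and array the authors deposited 1 value, taken as log2 from its range of 2.56 to 14.78. How they summarised and normalized the arrays was not stated in the labels. Per the labels' protocols, RNA was amplified in a double round and arrays were scanned with GCOS 1.1.1.

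All 45101 probe sets were quantile normalized, since the 75th percentiles of the deposited values differed between populations (7.44 to 7.52 in Tie2-positive, 7.26 to 7.33 in Tie2-negative arrays), and 64 array controls were then left out. Of 45037 probe sets, 34945 carried 1 gene symbol in the platform annotation, 932 several and 9160 none. The probe set with the highest mean stood for each of 18193 genes. Limma 3.58.1 in R 4.3.3 (lmFit, eBayes with a trend) was fitted to all 6 arrays with no covariate and two-sided tests, p-values were adjusted over all genes by Benjamini-Hochberg, and the procedure was tested on simulated data. Arrays give no read depth, and their number limits the precision.

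The 10 genes and all lists were chosen with earlier results of these data known. From each list the text names every called gene, or the 4 with the largest changes where more than 5 were called, and the uncalled gene with the highest mean. Alternatives were the replicate block, other normalizations, filters, probe set rules and variance models, array weights, and leaving out arrays. Protein sequences were not used here.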

Additional observations from a re-analysis of the deposited data

How the results depend on the processing

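Leaving out Tie2-negative replicate 1 or 2, or adding the replicate block, ended every call. The numbers in the titles were not shown to pair the samples: over 18193 genes, deviations from the population means correlated at 0.14, 0.01 and 0.19 between arrays of the same number. With the replicate block limma called 0 of all genes, of the 10 genes and of each list (smallest adjusted p 0.0521, with 5080 genes at an unadjusted p under 0.05). Over the 6 fits that left out 1 array, calls ran from 0 to 2148 over all genes and from 0 to 7 of the 10 genes. They ran from 0 to 8 for folding and export, 0 to 9 for basement membrane proteins, 0 to 2 for receptors, 0 to 4 for fibrillar, 0 to 2 for non-fibrillar collagens, 0 to 3 for relatives of Sparc, and were 0 for lysyl oxidases in all 6. Array weights gave 4639 calls over all genes, 12 for folding and export, 2 for lysyl oxidases, 11 for basement membrane proteins, and 5 each for receptors, fibrillar and non-fibrillar collagens. They also gave a call to Col4a5 (-0.45, adjusted p = 0.0498). Fibrillar calls were 1 with the values as deposited or centred on medians. Receptor calls were 1 with the low filter, over the mean of all probe sets and without x_at and s_at probe sets. Lysyl oxidase calls were 0 over the mean of all probe sets and with all probe sets tested. Without Tie2-positive replicates 2 and 3 together, where the single Tie2-positive array is given the Tie2-negative spread, calls were 3637 over all genes, 13 for folding and export and 4 for non-fibrillar collagens. Over the mean of all probe sets the direction turned for Col4a3 (-0.0007, adjusted p = 0.997) and Col4a5 (0.61, adjusted p = 0.171). The changes of the 10 genes kept direction and side of the threshold in 140 of 167 refits, and the cause of the other 27 was not tested. The 7 genes above the sensory receptor level in all Tie2-positive arrays stayed 7 at its 90th and 99th percentiles, with the values as deposited, with any probe set and without x_at and s_at probe sets.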

Other observations

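Among genes of other connective tissue cells the order of the Tie2-positive arrays was mixed. Of the genes above the sensory receptor level in a Tie2-positive array, replicate 1 was the highest in 2 and the lowest in 1 of 4 fibroblast and tendon markers, the highest in 2 and the lowest in 3 of 8 pericyte and smooth muscle markers, the highest in 1 and the lowest in 4 of 5 skeletal muscle markers, and the highest in 5 and the lowest in 2 of 9 fibrillar collagens. Examples of both orders were picked after their values were seen. Fbln5 (11.16, 8.54 and 9.06 in Tie2-positive replicates 1, 2 and 3) and Col5a2 (10.90, 9.35 and 9.87) had replicate 1 highest, and both were called. Col3a1, Dpt and Acta2 are given as examples with replicate 1 lowest, and none of these passed limma's test. Col3a1, a fibrillar collagen of loose connective tissue and vessel walls, was at 7.96, 10.11 and 11.45 in Tie2-positive replicates 1, 2 and 3, and at 6.16, 6.69 and 9.08 in Tie2-negative replicates 1, 2 and 3 (2.53 ± 1.06, SE; limma adjusted p = 0.173). Dpt (dermatopontin), which binds collagen fibrils, was at 5.01, 7.90 and 8.99 in the Tie2-positive and at 5.46, 5.07 and 6.92 in the Tie2-negative arrays. Acta2, smooth muscle actin, was at 8.50, 9.73 and 10.49 in the Tie2-positive and at 7.84, 8.24 and 9.45 in the Tie2-negative arrays. In Col3a1, Dpt and Acta2, Tie2-negative replicate 3 was the highest Tie2-negative array. The lists were mixed, counting genes above the sensory receptor level in a Tie2-negative array. Replicate 3 was the highest in 2 of 2 fibroblast and tendon markers and 3 of 6 pericyte and smooth muscle markers. It was the highest in 3 of 4 skeletal muscle markers and 4 of 8 fibrillar collagens. Over all genes, above the level or not, the share was 35.9%.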
